A study of Mus musculus with 12 samples.

Results

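The genes described here make ribosomes: they encode RNA polymerase I and the nucleolar proteins that cut, modify and fold ribosomal RNA. They were taken by name from the deposited mouse kidney expression table, as protein-coding genes called Utp, Nop or Rrp with a number, the Polr1a to Polr1e subunits of RNA polymerase I, and 11 further nucleolar genes (Fbl, Ncl, Npm1, Nolc1, Dkc1, Bop1, Pes1, Wdr12, Ddx21, Gar1 and Nhp2). The names picked out 40 of the 22032 protein-coding genes, out of 43346 genes in all.

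Ribosome synthesis starts in the nucleolus, where RNA polymerase I transcribes ribosomal DNA into a long precursor RNA. Small nucleolar ribonucleoproteins (snoRNPs) modify that precursor: box C/D particles guide methylation of ribose and H/ACA particles guide pseudouridylation. The small-subunit processome and the large-subunit assembly factors cleave the precursor and fold it with ribosomal proteins, and the exosome trims RNA ends and spacers. The transcripts measured here are the messenger RNAs of these factors, not ribosomal RNA.

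Kidney was sampled at day 1 in 2 groups, 6 samples labelled sham (numbered 1 to 6) and 6 labelled HP-AKI (numbered 7, 8, 9, 11, 12 and 13). Strain, age, genotype and the meaning of the letters HP are not given in the sources used here. The question was which of these genes differed between kidneys labelled HP-AKI and sham. Nothing in the labels says that samples of a group came from separate animals, so p-values measure the spread between these samples, which may be technical.

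Total counts ran from 31624522 to 41951129 per library. Each of the 40 genes had between 89 and 51299 counts in every library, and all 40 passed the filter on low counts. The first principal component of expression, with 81.3% of the variance, separated the groups. On the second, with 7.85%, sham 1, sham 2 and HP-AKI 8 stood at the low end. In those 3 libraries the mean log2 deviation of a gene from its own group fell with the gene's GC content, with Pearson's r of -0.85 and Spearman's rho of -0.86 across the 40 genes, which share the same libraries and are not independent. Bop1, Rrp7a and Fbl were low in those libraries, and Ncl, Nop58 and Dkc1 were high. The part of this axis in the results was not tested other than by leaving the 3 libraries out and by a fit with offsets for GC content.

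Cell-type markers moved with the groups too. Over all tested genes, 37.7% were higher and 35.2% lower in HP-AKI by the test given below. Tubule markers were lower in HP-AKI: all 10 proximal tubule markers fell, their summed level going from between 11240 and 13380 CPM (counts scaled to an equal library total) in sham to between 2169 and 3435 in HP-AKI, and 5 of 8 distal markers fell with 1 higher. Lrp2, the endocytic receptor megalin, had the highest CPM of the proximal list in sham and fell by 2.91 ± 0.09 (SE) on the log2 scale. Umod, uromodulin of the thick ascending limb, was the distal marker that rose, by 0.25 ± 0.11 (edgeR, adjusted p = 0.0492). Slc12a1, on the same list, fell by 2.86 ± 0.13, from 2236 to 308 CPM. All 5 tested neutrophil markers of 7 listed rose (summed CPM 1.94 to 3.66 in sham, 19.0 to 157 in HP-AKI), among them Csf3r by 2.09 ± 0.26. Of macrophage markers 2 of 9 rose, Cd68 by 3.54 ± 0.12 and Ly6c2 by 0.77 ± 0.25, and 5 fell, Csf1r by 1.01 ± 0.11. Of the 6 tested lymphocyte markers of 8 listed 5 fell, Cd8a by 3.66 ± 0.38, and Ncr1, not tested, was at 0 in HP-AKI. Endothelial markers rose in 4 of 6 and fell in 1, Emcn having a log2 fold change of 0.24 ± 0.13 that did not pass, and fibroblast and pericyte markers rose in 4 of 6, Dcn by 0.29 ± 0.12. Of 10 cycling-cell markers 3 rose and 3 fell (30.0% each, near the shares of all tested genes). Their summed CPM was 62.8 to 121 in sham and 122 to 143 in HP-AKI. Pcna, the sliding clamp of DNA replication, had the highest CPM of the list and rose by 1.12 ± 0.10 from 38.5 to 83.9 CPM. The higher sum came mainly from Pcna. Mcm2 and Mcm5, of the replicative helicase, rose by 0.64 and 0.53. Top2a, Mki67 and Ccna2, which mark dividing cells, fell by 0.90, 0.87 and 0.75. Sham samples varied widely for Mki67 (13.8 ± 7.12 CPM) and Top2a (10.1 ± 5.03 CPM; SD). Ccnb1, Cdk1, Aurkb and Birc5, of the same list, did not pass, at 0.43, 0.07, -0.09 and -0.25. The part of these markers in the results below was not tested. In whole tissue, more cells of a type and more RNA per cell cannot be told apart, and neither can fewer cells and less RNA.

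Ribosome-making genes were higher in HP-AKI in most cases. Of the 40, 34 passed as higher, 2 (Nop10 and Utp6) passed as lower and 4 (Bop1, Polr1c, Rrp36 and Utp11l) did not pass, at an adjusted p below 0.05 in edgeR's quasi-likelihood test with Benjamini-Hochberg adjustment over all 17470 tested genes. The same test called 37.7% of all tested genes higher and 35.2% lower, against 85.0% of the 40 higher. The median log2 fold change was 0.86 over the 40 and 0.04 over all tested genes. The 2 groups did not overlap, with every HP-AKI sample above every sham sample, for 25 of the 40, against 26.7% of all tested genes, and they did not overlap in the lower direction for Nop10 and Utp6, against 25.8%. A called rise of at least 2-fold was found in 12 of the 40, against 16.1% of all tested genes, and no member fell that far. A test against a 1.5-fold change called 23 of the 40 higher, against 20.1% of all tested genes, and none lower. Without sham 1, sham 2 and HP-AKI 8, the counts were 35 higher and 2 lower, with 38.3% of all tested genes higher.

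The summed level of the 40 genes was 1913 ± 119 CPM in sham and 3686 ± 203 CPM in HP-AKI (SD, n = 6 each). Their unscaled share of all counts was 0.183% ± 0.00583 in sham and 0.384% ± 0.0238 in HP-AKI. In HP-AKI 8 the median gene lay 0.48 above the sham mean on the log2 scale, against 0.78 to 0.90 in the other 5 HP-AKI libraries. HP-AKI 8 was the lowest of its group for 21 of the 40 genes, and sham 2 the lowest of its group for 17.

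**Figure D1:**
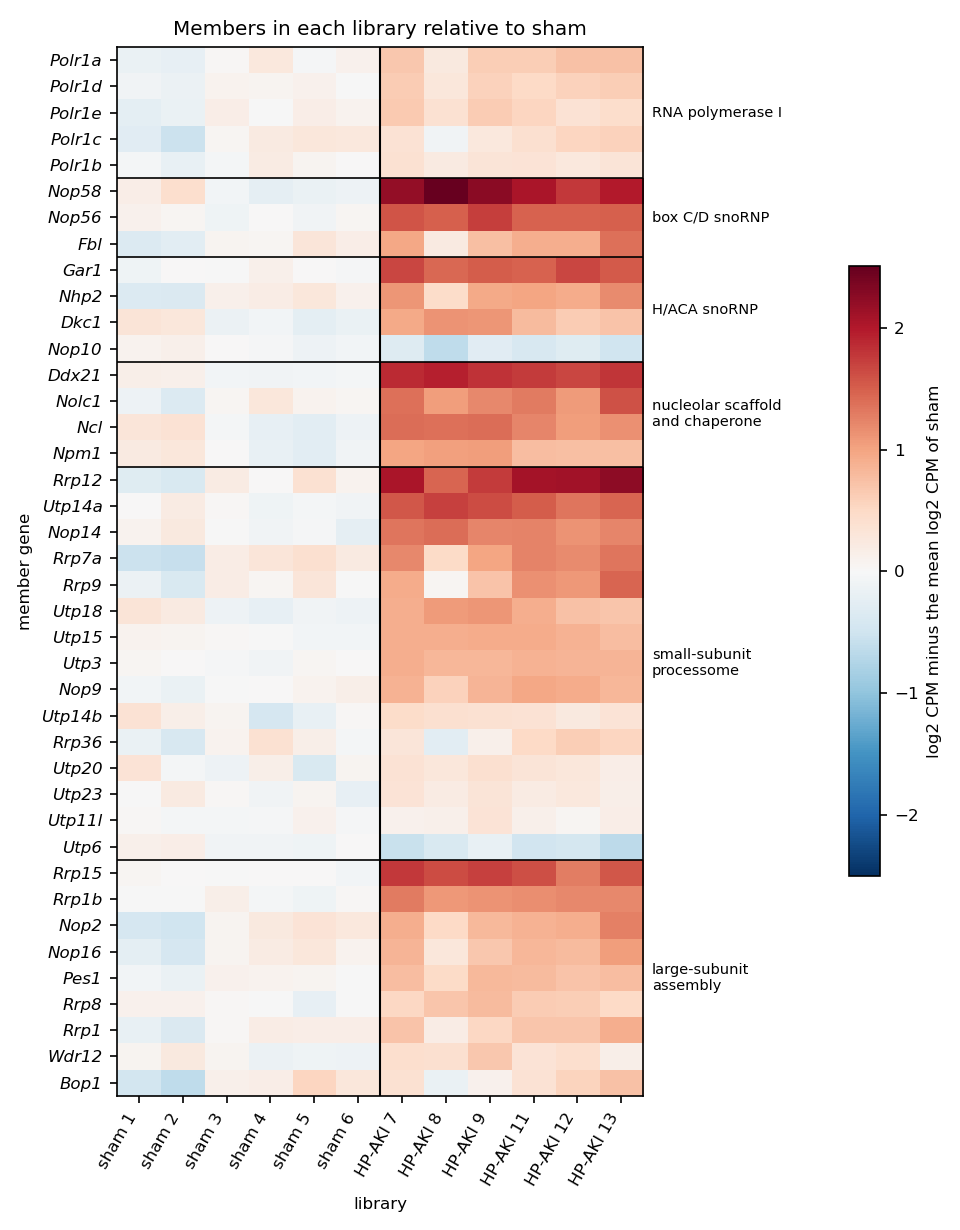
Each cell gives the log2 CPM of one gene (vertical axis, grouped by role) in one library (horizontal axis) minus the mean log2 CPM of sham, from blue (lower) through white to red (higher). The HP-AKI columns are red in nearly all rows, Nop10 and Utp6 are blue in all 6 HP-AKI libraries, and HP-AKI 8 is paler than its group in Fbl, Rrp9 and Bop1.

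RNA polymerase I subunits rose modestly. Of 5 subunits 4 passed as higher and 1 did not, and the median log2 fold change was 0.50. Polr1a encodes the largest catalytic subunit (chr6:71909053-71979356, GRCm38, plus strand). Its CPM had a lowest, median and highest value of 23.9, 27.3 and 32.7 in sham and of 32.4, 42.8 and 45.7 in HP-AKI. The groups overlapped through HP-AKI 8 alone, which lay below sham 4, while the other 5 HP-AKI samples were above all sham samples. The log2 fold change of Polr1a was 0.60 ± 0.10 (SE), with an adjusted p of 6.36e-05 in edgeR's test. Polr1d, a subunit of both RNA polymerase I and III (chr5:147077050-147111361, plus strand), had a lowest, median and highest CPM of 55.0, 62.6 and 65.98 in sham and of 74.0, 91.2 and 94.7 in HP-AKI. The groups did not overlap, and the log2 fold change was 0.53 ± 0.08 (edgeR, adjusted p = 1.68e-05). Polr1e rose by 0.50 ± 0.10, and Polr1b, the other large catalytic subunit, by 0.30 ± 0.07, both without overlap. Polr1c, like Polr1d shared with RNA polymerase III, had a mean CPM of 34.4 ± 7.41 in sham and 43.1 ± 6.75 in HP-AKI (SD) and a log2 fold change of 0.33 ± 0.15 that missed the threshold (edgeR, adjusted p = 0.0571). It passed without HP-AKI 8, sham 5 or sham 6 (0.37 to 0.38), at 0.18 without sham 1, sham 2 and HP-AKI 8, with GC offsets (0.30) and with library size only (0.44).

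Within RNA polymerase I, the catalytic subunits differed in size of change. For pairs of genes from the same complex, the log2 ratio of their CPM was taken in each sample and compared between groups by a two-sided exact permutation test over all 924 splits, whose smallest possible p is 0.00216. In all, 24 pairs were compared, chosen after values had been seen, with p-values adjusted over the 24. The log2 ratio of Polr1a to Polr1b was -0.01 ± 0.09 in sham and 0.28 ± 0.16 in HP-AKI (SD, n = 6 each), a difference of 0.29 (exact test, adjusted p = 0.0189). Polr1b relative to Polr1d was lower by a log2 ratio difference of -0.22 (exact test, adjusted p = 0.0156). Polr1a relative to Polr1d differed by 0.08 (exact test, adjusted p = 0.297), which did not exceed the spread between samples. Polr1a/Polr1c and Polr1b/Polr1e passed with all 12 libraries (0.26 and -0.20) and in 2 of the 12 comparisons that leave out a library, where the smallest possible p is larger; the differences there ran from 0.20 to 0.33 and from -0.24 to -0.15. The remaining 5 pairs of subunits did not pass. Without sham 1, sham 2 and HP-AKI 8, Polr1a/Polr1c passed at 0.36 and Polr1c/Polr1d at -0.29 (exact test, adjusted p = 0.0254 for both), and Polr1b/Polr1e did not, at -0.16 (exact test, adjusted p = 0.179).

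The box C/D core proteins rose, all 3 of 3 (against 37.7% of all tested genes), with a median log2 fold change of 1.55. Nop58, which with Nop56 forms the scaffold of the particle (chr1:59684971-59719044, plus strand), had a lowest, median and highest CPM of 31.0, 33.8 and 48.5 in sham and of 123, 158 and 206 in HP-AKI. HP-AKI 8 was the highest in its group and sham 2 in its own, and the groups lay far apart. Nop58 had the largest change of the 40 genes, 2.13 ± 0.14 (edgeR, adjusted p = 1.98e-09), a mean of 4.37 times the sham level. Nop56 rose by 1.55 ± 0.07, from 29.6 ± 1.68 to 86.3 ± 6.43 CPM (SD). Its exons share bases with Idh3b on the opposite strand, which fell by 0.86. Fbl, fibrillarin, the methyltransferase of the particle, rose by 0.88 ± 0.16, from 19.7 ± 3.33 to 36.2 ± 8.96 CPM. Its groups overlapped through HP-AKI 8, at 22.8 CPM, below the highest sham value of 24.1.

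The 3 box C/D proteins did not rise alike. Fbl fell relative to Nop58, with a log2 ratio difference of -1.27 (exact test, adjusted p = 0.0115), and Nop56 fell relative to Nop58 with a difference of -0.58 (exact test, adjusted p = 0.0115). Fbl relative to Nop56 differed by -0.69 (exact test, adjusted p = 0.0260), a call lost without sham 6 (-0.66). The sample ranges of all 3 ratios overlapped between groups. Nop58 and Fbl lie at opposite ends of the GC-linked axis in sham 1, sham 2 and HP-AKI 8, and without those libraries the differences were -1.36 for Fbl/Nop58, -0.61 for Nop56/Nop58 and -0.76 for Fbl/Nop56.

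The H/ACA core proteins split, 3 rising and 1 falling, against 37.7% and 35.2% of all tested genes. Gar1 (chr3:129824912-129831396, minus strand), a small protein of the particle that binds its catalytic subunit, had a lowest, median and highest CPM of 9.61, 10.3 and 11.3 in sham and of 28.1, 29.7 and 32.9 in HP-AKI. The samples of each group were tight and the groups far apart, with a log2 fold change of 1.56 ± 0.08 (edgeR, adjusted p = 1.35e-10). Nop10 (chr2:112261926-112263269, plus strand), the smallest core protein, which also binds the catalytic subunit, went the other way. Its lowest, median and highest CPM were 85.9, 93.1 and 103 in sham and 60.7, 72.8 and 77.5 in HP-AKI. All 6 HP-AKI samples lay below all 6 sham samples, HP-AKI 8 lowest, and the log2 fold change was -0.41 ± 0.08 (edgeR, adjusted p = 2.10e-04). Dkc1, dyskerin, the pseudouridine synthase itself, rose by 0.88 ± 0.12, and Nhp2 by 0.93 ± 0.14, both without overlap between groups. Nhp2 shares exon bases with Rmnd5b on the opposite strand, which rose by 0.97, from 18.4 to 36.1 CPM, and Dkc1 with Mpp1, which fell by 0.54, so the values of Nhp2 and Dkc1 and their ratios are uncertain if reads were counted without strand.

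Relative to Nop10, each of the other 3 H/ACA proteins was higher in every HP-AKI sample than in any sham sample. This had to be so, since those 3 rose and Nop10 fell, all without overlap between groups. The exact test of these 3 ratios could only give its smallest p and adds no evidence to the separate changes. The log2 ratio of Gar1 to Nop10 was -3.19 ± 0.14 in sham and -1.23 ± 0.11 in HP-AKI (SD, n = 6 each), a difference of 1.96 (exact test, p = 0.00216, the smallest it can give, adjusted p = 0.0104). The differences were 1.34 for Nhp2/Nop10 and 1.29 for Dkc1/Nop10, with the same p-values. Gar1 also rose relative to Dkc1 (Dkc1/Gar1 difference -0.67, exact test, adjusted p = 0.0104) and to Nhp2 (0.62, exact test, adjusted p = 0.0115). Dkc1 and Nhp2 were not told apart, with a difference of -0.05 (exact test, adjusted p = 0.875).

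**Figure D2:**
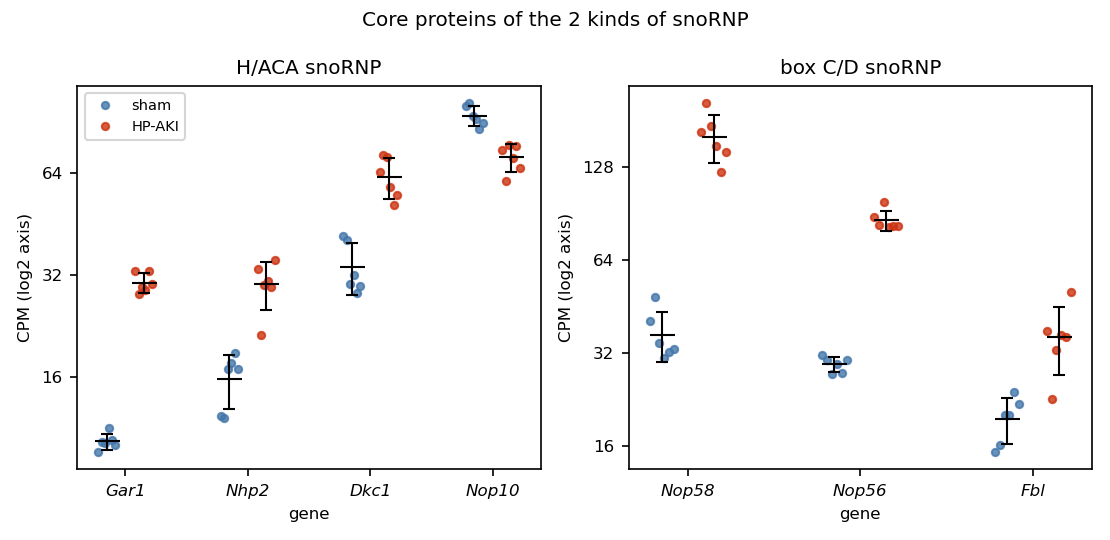
CPM on a log2 axis of the core proteins of the H/ACA (left) and box C/D (right) particles, a point per library, with the mean and SD of the 6 samples of each group in black. Gar1, Nhp2, Dkc1, Nop58, Nop56 and Fbl have higher means in HP-AKI, while Nop10 falls from 94.1 to 71.0 CPM.

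Nucleolar scaffold and chaperone genes rose, 4 of 4 without overlap (against 26.7% of all tested genes), with a median log2 fold change of 1.26. Ddx21, an RNA helicase that acts in ribosomal DNA transcription and RNA processing (chr10:62580248-62602298, minus strand), had a lowest, median and highest CPM of 59.6, 60.5 and 69.5 in sham and of 200, 219 and 244 in HP-AKI. The lowest HP-AKI sample was far above the highest sham sample, and the log2 fold change was 1.81 ± 0.07 (edgeR, adjusted p = 1.75e-11), the smallest adjusted p among the 40. Ncl, nucleolin, an abundant histone chaperone and RNA-binding protein of the nucleolus (chr1:86344719-86359400, minus strand), had a lowest, median and highest CPM of 396, 448 and 608 in sham and of 980, 1174 and 1264 in HP-AKI. Sham 1 and sham 2 were the highest of their group, and the change was 1.25 ± 0.12 (edgeR, adjusted p = 1.72e-07). Nolc1, a chaperone of snoRNPs, rose by 1.27 ± 0.11, and Npm1, nucleophosmin, by 0.88 ± 0.10.

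The small-subunit processome had 12 of 15 genes higher, 1 lower and 2 not passed, with a median of 0.86. Rrp12 (chr19:41862852-41896153, minus strand), which acts in maturation and export of pre-ribosomes, had a lowest, median and highest CPM of 4.30, 5.78 and 7.29 in sham and of 15.5, 23.5 and 26.5 in HP-AKI. HP-AKI 8 was lowest of its group, yet above all sham samples, and the log2 fold change was 1.94 ± 0.16 (edgeR, adjusted p = 2.55e-08). Utp14a rose by 1.54 ± 0.08 and Nop14 by 1.26 ± 0.08. Rrp7a (1.04), Rrp9 (0.94), Utp18 (0.90), Utp15 (0.89), Utp3 (0.86) and Nop9 (0.84) rose by similar amounts; Rrp9 is a U3 snoRNP protein, and HP-AKI 8 overlapped sham for it. In all, 12 of the 40 genes, Nop56 included, share exon bases with another protein-coding gene, 11 of them on the opposite strand. Whether reads were counted by strand is not given in the sources used here, so the values of all 12 are uncertain. Of the processome genes these are Rrp7a (with Serhl, log2 fold change -1.12), Nop9 (Cideb, -1.75) and Rrp9 (Parp3, 0.31), besides Utp14b. Among the large-subunit factors described below they are Rrp8 (Ilk, 0.47), Bop1 (Mroh1, 0.45), Wdr12 (Carf, -0.44), Rrp1b (Hsf2bp, -1.13) and Pes1 (4930556J24Rik, -1.15).

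Utp6, a processome protein (chr11:79932321-79962390, minus strand), was lower in HP-AKI. Its lowest, median and highest CPM were 84.1, 87.6 and 101 in sham and 57.3, 65.5 and 78.8 in HP-AKI. The groups did not overlap, and the log2 fold change was -0.45 ± 0.08 (edgeR, adjusted p = 2.07e-04). Utp20, a very large scaffold protein (chr10:88746607-88826814, minus strand), had a lowest, median and highest CPM of 57.7, 76.0 and 95.8 in sham and of 84.4, 93.1 and 99.8 in HP-AKI. Sham 1 lay within the HP-AKI range, and the change of 0.29 ± 0.10 (edgeR, adjusted p = 0.0195) lost its call without HP-AKI 9 or without sham 3 (0.25 each). Utp23 rose by 0.24 ± 0.09 (edgeR, adjusted p = 0.0277), a call lost without HP-AKI 7, HP-AKI 9, sham 1, sham 3, sham 4 or sham 6, at 0.20 to 0.24, and also with upper-quartile factors (0.19) or no filter on low counts (0.21). Rrp36 (0.31 ± 0.16; edgeR, adjusted p = 0.0863) and Utp11l (0.16 ± 0.07; edgeR, adjusted p = 0.0550) did not pass. Rrp36 passed without HP-AKI 8 (0.38) or sham 4 (0.39), with GC offsets (0.30) and with library size only (0.43). Utp11l passed without sham 5 (0.17), with GC offsets (0.25), with library size only (0.27) and at a minimum of 1 CPM in 6 samples (0.16).

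Utp14a and Utp14b encode near-copies of the same processome protein, Utp14b being a retrotransposed copy. Utp14b rose by 0.35 ± 0.12 (edgeR, adjusted p = 0.0140), from 9.13 ± 1.65 to 11.7 ± 0.550 CPM (SD). The log2 ratio of Utp14a to Utp14b was 0.96 ± 0.23 in sham and 2.13 ± 0.09 in HP-AKI, a difference of 1.16 without overlap (exact test, adjusted p = 0.0104). Reads of such copies can be split by the counting, and Utp14b also shares exon bases with Acsl3 on the same strand, which fell by 1.13 on the log2 scale, so the values of Utp14b are uncertain.

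Of the large-subunit assembly factors 8 of 9 rose (88.9%, against 37.7% of all tested genes) and 1 did not pass. Their median log2 fold change was 0.73. Rrp15 (chr1:186720978-186749358, minus strand) had a lowest, median and highest CPM of 10.6, 11.1 and 11.4 in sham and of 26.8, 33.9 and 37.7 in HP-AKI. Sham samples were nearly level, HP-AKI 12 was the lowest of its group, and the change was 1.60 ± 0.09 (edgeR, adjusted p = 3.46e-10). Pes1, of the PeBoW complex that it forms with Bop1 and Wdr12 (chr11:3963975-3980004, plus strand), had a lowest, median and highest CPM of 52.9, 60.8 and 64.5 in sham and of 83.4, 102 and 104 in HP-AKI. The groups did not overlap, with HP-AKI 8 well below the other 5, and the change was 0.73 ± 0.08 (edgeR, adjusted p = 4.98e-07). Wdr12 rose by 0.40 ± 0.10, with HP-AKI 13 inside the sham range. Bop1 had 14.0 ± 4.08 CPM in sham and 17.2 ± 3.70 in HP-AKI (SD), with a log2 fold change of 0.30 ± 0.19 (edgeR, adjusted p = 0.176). The log2 ratios within PeBoW differed by 0.40 for Pes1/Bop1 (exact test, adjusted p = 0.0812), by -0.07 for Bop1/Wdr12 (adjusted p = 0.854 by the same exact test) and by 0.32 for Pes1/Wdr12 (exact test, adjusted p = 0.0450), the last passing in 4 of the 12 comparisons that leave out a library. Without sham 1, sham 2 and HP-AKI 8, Pes1/Bop1 passed at 0.56 (exact test, adjusted p = 0.0254) and Pes1/Wdr12 did not, at 0.23 (exact test, adjusted p = 0.0714).

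Rrp1b rose by 1.18 ± 0.07 and its paralog Rrp1 by 0.62 ± 0.12, and the log2 ratio of Rrp1b to Rrp1 was higher in HP-AKI by 0.57 (exact test, adjusted p = 0.0115). Nop2, a methyltransferase of large-subunit ribosomal RNA, rose by 0.86 ± 0.16, Nop16 by 0.74 ± 0.14 and Rrp8 by 0.63 ± 0.08. The groups overlapped for Nop16 and Rrp1, and HP-AKI 8 was the lowest HP-AKI sample in both.

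**Figure D3:**
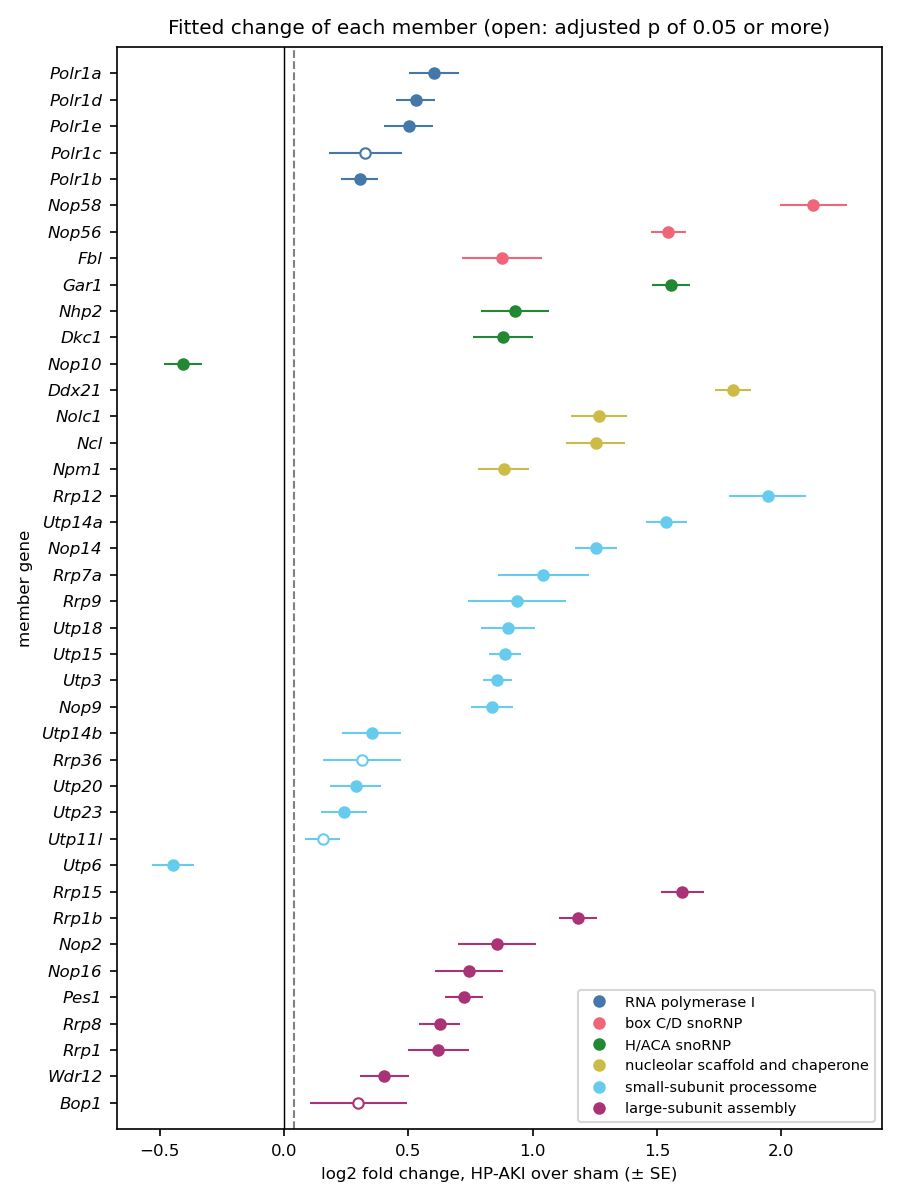
Fitted log2 fold change of HP-AKI over sham (horizontal axis) with its SE for each gene (vertical axis), coloured by role; open points did not pass, the solid line is no change and the dashed line the median of all tested genes, 0.04. Nop58 is farthest to the right at 2.13, and the RNA polymerase I subunits shown lie between 0.30 and 0.60. Nop10 and Utp6 lie left of the solid line.

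Per listed gene length, Npm1 was the most abundant of the 40 transcripts in both groups. On the authors' RPKM scale, which divides by gene length, its mean level was 32.9 ± 2.63 in sham and 64.4 ± 5.91 in HP-AKI (SD, n = 6 each). By mean CPM Ncl was the highest, at 483 in sham and 1151 in HP-AKI, against 283 and 523 for Npm1. The listed lengths were 10188 bases for Ncl, 10758 for Nop58 and 2665 for Npm1. Places between genes depend on these lengths, and whether they match the transcripts present was not tested. In sham Nop10 (26.4 ± 0.681) and Ncl (14.6 ± 1.64) came next in RPKM, and in HP-AKI their order was exchanged, with Ncl at 37.2 ± 4.03 and Nop10 at 21.1 ± 2.66. Ranked by mean RPKM among the 40, Ddx21 moved from place 12 to place 5, Nop58 from 34 to 18 and Utp6 from 6 to 19. Rrp1 (15.8 ± 3.11) and Ddx21 (15.3 ± 0.901) in HP-AKI lay within each other's SD. Utp14b was lowest in both groups, at 0.368 ± 0.0482 and 0.4997 ± 0.0364 RPKM. Spread between samples was similar in both groups, the median coefficient of variation of CPM over the 40 genes being 11.8% in sham and 10.2% in HP-AKI.

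**Figure D4:**
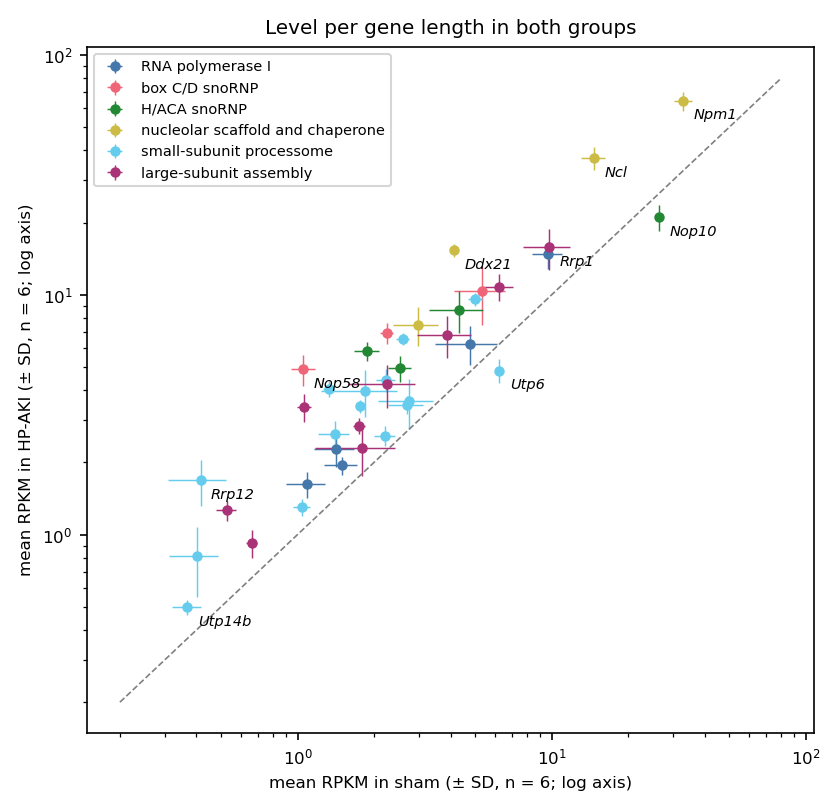
Mean RPKM in HP-AKI against mean RPKM in sham (both log axes) for the 40 genes, with the SD of 6 samples per group as bars and equality as a dashed line. All genes but Nop10 and Utp6 lie above the line, and Npm1 is highest in both groups.

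Of the 40 genes, 33 had a promoter window in RefSeq (GRCm38.p6), from 250 bases before to 50 after the transcription start. These windows were searched on both strands for 9 short motifs. The E-box CACGTG, the letters bound by MYC-family factors, was in 6 of 33 (18.2%), against 9.75% of the windows of tested protein-coding genes. The ETS-family letters CCGGAAG were in 10 of 33 (30.3%), against 16.3%, and the shorter TTCCGG, which lies within their reverse complement, in 14 (42.4%), against 25.8%. The variant CGCGTG was in 13 (39.4%), against 16.5%. The CCAAT box (letters CCAAT) was in 13 (39.4%), against 38.4%, and the TATA box TATAAA in 3 (9.09%), against 7.61%. The NRF1 letters TGCGCATGC, a longer NRF1 form that overlaps them, and the YY1 letters AAGATGGC were in none of the 33, against 2.83%, 1.91% and 4.20% of the windows of tested protein-coding genes, low shares that 33 windows can hardly tell from none. A match describes letters in the window and is not a bound site.

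Printed below are 4 promoters, each the 150 bases before the start, 5′ to 3′ on the gene's strand, with CACGTG and CCGGAAG (or its reverse complement) in capitals. They show windows with the ETS letters (Gar1 and Nolc1), with both motifs (Nop2) and with neither in this stretch (Nop10), and were picked by hand. Of the 30 genes that rose and have a window, 12 hold either motif and 18 neither, Nop58, Nop56 and Ddx21 among the latter, and Polr1c and Rrp36, which did not pass, hold the ETS letters. The 4 printed stretches lie at chr3:129831397-129831546 (Gar1, minus strand), chr19:46075697-46075846 (Nolc1, plus strand), chr6:125131733-125131882 (Nop2, plus strand) and chr2:112261776-112261925 (Nop10, plus strand).
Gar1: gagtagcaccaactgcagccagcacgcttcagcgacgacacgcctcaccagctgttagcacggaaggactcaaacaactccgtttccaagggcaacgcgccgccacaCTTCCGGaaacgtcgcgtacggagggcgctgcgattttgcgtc
Nolc1: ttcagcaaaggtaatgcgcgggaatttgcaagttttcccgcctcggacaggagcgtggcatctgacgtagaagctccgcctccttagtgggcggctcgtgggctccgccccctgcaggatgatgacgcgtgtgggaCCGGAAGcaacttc
Nop2: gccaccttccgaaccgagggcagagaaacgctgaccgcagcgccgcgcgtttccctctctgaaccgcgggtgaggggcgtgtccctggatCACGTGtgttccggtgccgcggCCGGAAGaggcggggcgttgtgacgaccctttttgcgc
Nop10: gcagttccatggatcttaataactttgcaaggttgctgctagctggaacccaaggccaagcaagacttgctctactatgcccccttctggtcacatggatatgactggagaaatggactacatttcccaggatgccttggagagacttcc

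Other genes of the same pathway were taken from 5 lists of 115 genes in all that contain none of the 40. Taken over all 5 lists most were higher, with 93 higher, 6 lower and a median log2 fold change of 0.76. These are 80.9% higher and 5.22% lower, against 37.7% and 35.2% of all tested genes. Further small-subunit factors were higher in 36 of 38 (94.7%) and lower in none, with a median of 0.88. Tsr1, a late small-subunit maturation factor, rose by 1.77 ± 0.11, Noc4l, of the Noc4-Nop14 pair, by 1.57 ± 0.14, and Ddx52, a helicase with the highest CPM of the list, by 0.51 ± 0.09. Further large-subunit factors were higher in 33 of 37 (89.2%) and lower in none, with a median of 1.13. Eif6, which keeps the new large subunit from joining the small one too early, rose by 2.61 ± 0.18, from 28.1 ± 6.43 to 172 ± 36.0 CPM (SD). Gnl3, nucleostemin, rose by 2.23 ± 0.10, and Las1l, an endonuclease that cuts the second internal spacer, by 1.29 ± 0.09.

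Of the snoRNP assembly factors 8 of 11 rose (72.7%, against 37.7% of all tested genes) and none fell, with a median of 0.54. Nufip1, a scaffold for box C/D assembly, rose by 1.23 ± 0.08, Shq1, a chaperone of dyskerin, by 1.06 ± 0.11, and Nhp2l1, the fourth core protein of the box C/D particle, by 0.46 ± 0.08. Of the RNA exosome and its cofactors 9 of 14 were higher (64.3%, against 37.7% of all tested genes), 4 were lower (28.6%, against 35.2%) and the median was 0.55. Mphosph6, an exosome cofactor in ribosomal RNA trimming, rose by 1.10 ± 0.11 and Exosc9, a ring subunit, by 0.83 ± 0.10. C1d, a cofactor of the nuclear exosome, fell by 0.75 ± 0.10, Dis3l, the cytoplasmic catalytic subunit, by 0.74 ± 0.08, and Skiv2l2, the nuclear helicase also called Mtr4, by 0.43 ± 0.08.

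RNA polymerase I factors and subunits shared with other polymerases were the list with the lowest median, 0.32, with 7 of 15 higher (46.7%, near the 37.7% of all tested genes) and 2 lower (13.3%). Taf1d, of the promoter selectivity factor, rose by 1.85 ± 0.16 and Polr2h, a shared subunit, by 0.88 ± 0.08. Of further RNA polymerase I subunits, Twistnb rose by 0.86 ± 0.12, while Cd3eap (0.06 ± 0.13) and Znrd1 (0.21 ± 0.10) did not pass. Ttf1, the transcription termination factor, fell by 0.44 ± 0.09. Polr2k, a shared subunit, had a log2 fold change of -0.32 ± 0.14 (edgeR, adjusted p = 0.0477), and its list had 1 lower gene instead of 2 when HP-AKI 7, 11, 12 or 13 or sham 1, 2 or 3 was left out in turn. Ubtf, which activates ribosomal DNA promoters, had 80.5 ± 8.51 CPM in sham and 85.4 ± 9.76 in HP-AKI (SD) and a log2 fold change of 0.09 ± 0.09 (edgeR, adjusted p = 0.413).

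**Figure D5:**
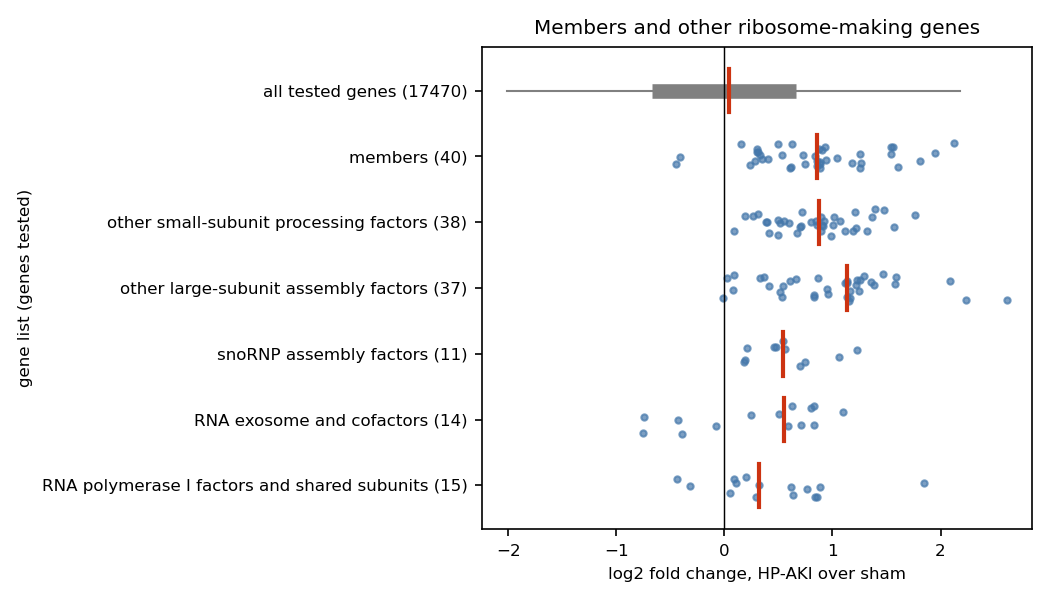
Log2 fold change of HP-AKI over sham (horizontal axis) of each gene as a point, by list (vertical axis, tested genes in brackets), with the median in red; for all tested genes the thick bar spans the quartiles and the thin line runs beyond them to the outer twentieths. The median is 0.86 for the 40 genes, 1.13 for the other large-subunit factors and 0.04 for all tested genes.

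Some of these genes carry small nucleolar RNA genes in their introns, which are processed out of the host transcript. In the GENCODE annotation, snoRNA genes lie inside Nop56 (5), Nop58 (4), Ncl (3) and Dkc1 (1). All 4 host genes rose, with a median log2 fold change of 1.40, and 30 of the other 36 rose, with a median of 0.79 over the 36. In the 5 lists the hosts are Taf1d (8), Wdr43 (3), Gnl3 (3), Tsr1 (2) and Ppan (2). All 5 rose, with a median of 1.85, and 88 of the other 110 rose, with a median of 0.72 over the 110. All hosts and most genes without a snoRNA gene inside thus rose, against 37.7% of all tested genes. This split was made after the values had been seen and is given without a test.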

How the data were processed

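Gene counts and RPKM were read for 12 kidney libraries, 6 sham and 6 HP-AKI. The deposited counts are whole numbers of reads per gene that the authors made; per the submitters' processing notes TopHat2 2.1.0, featureCounts and edgeR were used with GRCm38, with no roles or settings given. RPKM, also deposited by the authors, divides by the listed gene lengths, with implied totals 2.98 to 3.47 times the count sums. It served for levels between genes, shown for both groups, and no test between groups used it. Libraries were prepared with a TruSeq v2 kit, per the labels' protocols.

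The test was edgeR's (version 4.0.16, in R 4.3.3): filterByExpr, TMM factors, a two-sided quasi-likelihood F-test over 17470 genes and Benjamini-Hochberg adjustment. CPM values use the TMM factors. The SE is the log2 fold change over the square root of F. Ratios within complexes were compared by exact permutation (SciPy 1.17.1). Fits were also run on counts simulated from the sham means, with far fewer genes changed than were called here. Such counts cannot test the scaling under a change this wide. The lowest chi-square per degree of freedom of any library pair was 8.22, so no pair counted as a duplicate.

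The members, the 5 pathway lists and the 8 marker lists were chosen with earlier results of these data known. Of list entries, 4 were matched by identifier and a few found no row. Given with every sample's range are, per role, the called genes with the largest rise and largest fall and the gene of highest mean CPM. From each pathway list the 2 largest rises, the 2 largest falls and the highest mean CPM are given. From each marker list the gene highest in sham is given. Cd68, Ly6c2, Ncr1, Slc12a1, Twistnb, Cd3eap, Znrd1 and the other cycling markers were chosen after their values were seen. Alternatives were DESeq2 1.42.0, limma-voom (limma 3.58.1), other scalings and filters, GC offsets, glmTreat, leaving out each library and, added after seeing the data, leaving out 3 libraries. GC content, overlaps and snoRNA genes come from GENCODE release 21 (GRCm38), whose coordinates equal the listed ones for 25 of the 40 genes; promoters come from RefSeq.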

Additional observations from a re-analysis of the deposited data

Results flagged for a closer look

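In a group of 6 samples, the lowest or highest value was singled out where its gap to the nearest sample exceeded Dixon's critical share of the group's range. Of the 80 groups examined (40 genes in 2 groups), 4 held such a sample, where chance marks about 1 in 20, and all 4 were the lowest HP-AKI value. HP-AKI 8 was low for Polr1a, at 32.4 CPM with the next sample at 42.1, for Pes1, at 83.4 CPM with the next at 98.3, and for Nop9, at 24.7 CPM with the next at 29.4. HP-AKI 13 was low for Utp15, at 39.3 CPM with the next at 42.2. All 4 genes passed as higher in HP-AKI with these samples included.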

How the results depend on the processing

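No paired analysis was possible because the groups share no replicate number. Of 22 alternatives other than glmTreat, 34 of the 40 genes passed in the same direction under every one, the other 2 called genes being Utp20 and Utp23, and none reversed. The median log2 fold change of the 40 was 0.79 with GC offsets, 0.97 with library size only, 0.80 with upper-quartile factors, 0.80 without sham 1, sham 2 and HP-AKI 8, and 0.77 to 0.86 leaving out each library. Library size alone moved the median of all tested genes from 0.04 to 0.16, and the 40 lay 0.75 to 0.82 above that median under every setting. Against a 1.5-fold change (glmTreat), calls fell to 0 lower of the 40, 3509 genes higher and 3635 lower, 4 exosome genes higher and 2 lower, 0 RNA polymerase I factors lower, 21 small-subunit and 3 snoRNP assembly factors higher. RNA polymerase I factors called lower were 1 with library size only, with limma-voom and without the 3 libraries, and 1 to 2 leaving out each library. With no filter 29324 genes were tested, 7546 higher and 7087 lower. Of 15 ratios that passed, 11 held leaving out each library, while Fbl/Nop56, Pes1/Wdr12, Polr1a/Polr1c and Polr1b/Polr1e did not. Both counts include the 3 ratios to Nop10, for which the test could only give its smallest p, so these add no evidence. Small ratio differences that did not pass changed sign: leaving out each library, Dkc1/Nhp2 ran from -0.19 to 0.0835, Polr1b/Polr1c from -0.10 to 0.0384, Bop1/Wdr12 from -0.25 to 0.0546 and Polr1d/Polr1e from -0.0153 to 0.0521; without the 3 libraries Dkc1/Nhp2 was 0.14 and Polr1b/Polr1c 0.0444. The cause was not tested. All 40 genes had at least 89 counts in every library.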
